A study of Mus musculus with 9 samples.

Results

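The genes described here encode the collagens and the other matrix proteins, enzymes and filaments by which scarring of the liver is usually read. They were taken by gene name from the design of a mouse microarray: every collagen chain, tissue inhibitor of metalloproteinases (TIMP), matrix metalloproteinase and gene whose name starts with Lox, the transforming growth factor genes Tgfb1, Tgfb2 and Tgfb3, and Acta2, Des, Dcn, Lum, Fn1 and Sparc. The names matched 165 probes for 86 genes, out of 56605 probes for 37074 gene names. No measured value entered this choice. The name Loxhd1 was matched as well, although its product is not a lysyl oxidase.

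Total RNA of whole livers of male mice was hybridized to 9 one-colour arrays of 60-base probes, 3 for each of 3 groups. All mice had received a hepatocyte-specific adeno-associated virus (AAV), which per the methods of the study was injected into the tail vein of C57BL/6N mice. The virus was empty in the AAV-V group and carried GP73 (Golgi protein 73, encoded by Golm1) in the AAV-GP73 group, both on a normal diet. The AAV-V HFD group had received the empty virus and a high-fat diet (HFD). Per the labels the mice were 12 months old, where the text of the study counts 12 months from the injection. No source says if RNA of several mice was pooled, so that p values here measure the spread between samples, which may be technical in part. The comparison of AAV-GP73 with AAV-V addresses fatty liver without obesity, and that of AAV-V HFD with AAV-V fatty liver with obesity.

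In the liver, collagen and most of the other matrix is laid down by hepatic stellate cells, which store vitamin A at rest and turn into contractile myofibroblasts after injury. TGF-β is their main fibrogenic signal, lysyl oxidases crosslink the collagen they secrete, and metalloproteinases and TIMPs set how fast the matrix is removed. Hepatocytes make plasma fibronectin, and the mesenchymal cells are a small minority of the organ. In RNA of whole liver, fewer cells of a type and less RNA per cell cannot be told apart.

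The sequences below are the first 30 bases of the 60-base probes behind the changes described further on, with the mm9 coordinates that the array files give for the whole probe. They show on which transcript each result rests. Of the 2 probes for Des, the detected one lies on the Ensembl transcript ENSMUST00000144894 and not on the RefSeq mRNA of desmin. The probe of that mRNA was detected on no array. The 3 probes for Fn1 start at bases 769, 7252 and 8296 of their RefSeq mRNAs, and a probe whose coordinates span more than 60 bases crosses an intron.
Col7a1 A_51_P255395, chr9:108886855-108886914, plus strand: ccgaggctgtgataccatggtgctgatggg
Des A_55_P2718707, chr1:75358447-75358506, plus strand: taaaataaaacagagttcctaaccccgggg
Mmp28 A_66_P132180, chr11:83261064-83261123, minus strand: tggagttctgggaagccccagccacgggcc
Mmp19 A_55_P2495403, chr10:128237761-128237820, plus strand: caaaacccaaacaaaacaggtttttgggaa
Col18a1 A_51_P191700, chr10:76515820-76515879, minus strand: agcattcagtcagcacccagggctctggct
Dcn A_51_P334104, chr10:96980233-96980292, plus strand: aacaccttcagatgtgtctatgtgcgttct
Fn1 A_55_P2743309, chr1:71694694-71695800, minus strand: atggaaaaggggaatggacctgcaaaccta
Fn1 A_51_P100856, chr1:71637422-71639659, minus strand: gatgcgattcatctaaatggtgccatgaca
Fn1 A_55_P2130178, chr1:71632116-71632175, minus strand: ggtgattatttttataagcacatgccaacg

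Array signals are given on 2 scales. The processed signal is the deposited spot intensity, from which the scanner's software had removed background and trend array by array, with no scaling of one array to another. The scaled log2 signal is its log2 value after a shift of each array that made the 75th percentile equal over 2667 probes, those with detection on all 9 arrays. A probe is called detected, or well above background, where the scanner's software set that flag on at least 50% of its spots. The arrays differed in brightness: this percentile stood at a processed signal of 89.2 to 105 on the AAV-V arrays, 255 to 326 on the AAV-GP73 arrays and 195 to 324 on the AAV-V HFD arrays, and 6.67% to 7.21%, 12.5% to 14.9% and 10.2% to 13.2% of all probes were detected. The lowest detected scaled log2 signal was therefore higher on the AAV-V arrays, at 3.86 ± 0.09 (SD, n = 3) against 2.17 ± 0.32 in AAV-GP73, with 2.39 ± 0.39 in AAV-V HFD. The AAV-V and AAV-GP73 arrays shared a slide and a scan. The slide of the AAV-V HFD arrays was a different one, and its effect cannot be told apart from that of the diet. The 1 probe for Golm1 was detected on 0 of 9 arrays, with a processed signal of 1.51 to 2.74, so that the groups could not be checked by the gene the virus carried.

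Most of the matrix genes were well above background on no array. Of the 165 probes, 138 (83.6%) were detected on no array, against 80.0% of all probes, and 62 of the 86 genes (72.1%) had no detected probe, against 73.9% of all gene names. The shares were near those of the whole array. The 138 probes had a median processed signal of 1.71, with a highest value of 8.56 on any array. For 8 genes a probe was detected on all 3 arrays of at least 1 group (Col7a1, Col18a1, Dcn, Des, Fn1, Mmp19, Mmp28 and Sparc), and for 16 more a probe was detected on some arrays but never on all 3 of a group. Of 165 probes, 8 were detected on all arrays of AAV-V (14 on at least 1), 9 on all of AAV-GP73 (20 on at least 1) and 10 on all of AAV-V HFD (18 on at least 1). The flag is strict, and undetected does not mean absent. With the scanner's weaker flag of a significant positive signal, 46 to 58 of the 165 probes passed on an array. Of all probes, 26.5% to 40.6% did.

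**Figure D1:**
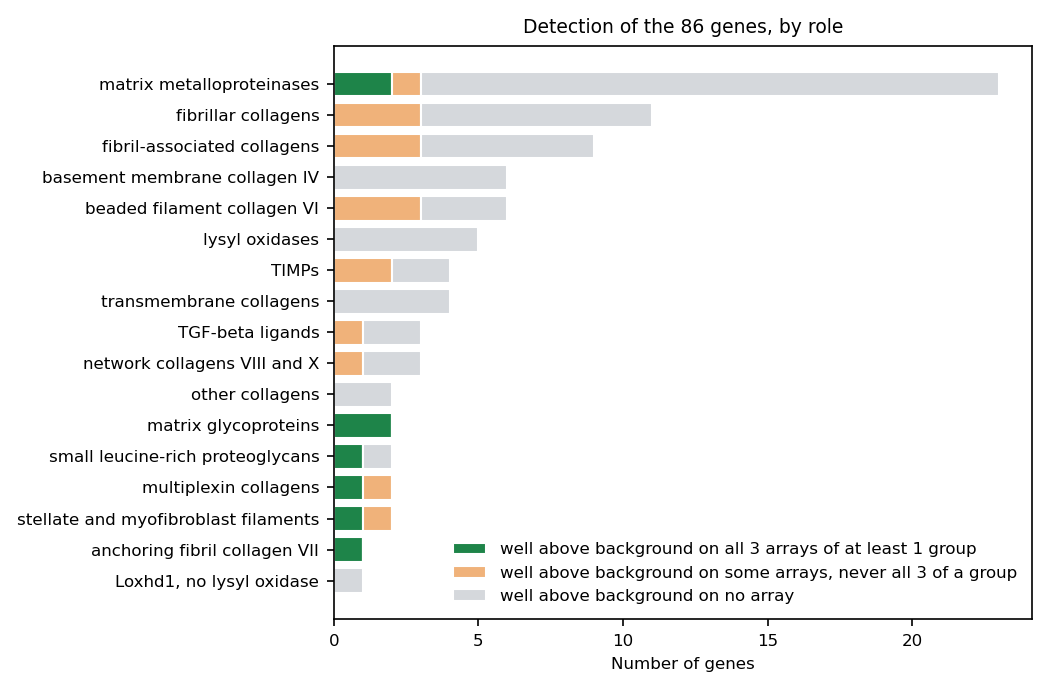
Number of genes (x axis) in each role (y axis), coloured by where a probe of the gene was well above background: throughout 1 group or more (green), on some arrays but never all 3 of a group (orange) or on no array (grey). Grey makes up the whole bar for collagen IV, the transmembrane collagens and the lysyl oxidases.

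Among the 44 collagen genes 31 (70.5%) were undetected on all arrays. All 6 chains of collagen IV, which forms the sheets of basement membranes, all 4 transmembrane collagens (Col13a1, Col17a1, Col23a1 and Col25a1), and Col26a1 and Col28a1 were undetected. Of the 11 fibrillar collagens, which form the banded fibres of scars, 8 were undetected (Col1a1, Col2a1, Col5a1, Col5a2, Col11a1, Col11a2, Col24a1 and Col27a1). Of the 9 fibril-associated collagens 6 were undetected (Col9a1, Col9a2, Col9a3, Col12a1, Col19a1 and Col20a1), of the 6 chains of collagen VI 3 (Col6a2, Col6a5 and Col6a6), and of the network collagens Col8a1 and Col10a1.

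Of the enzymes and their regulators, all 5 lysyl oxidases (Lox, Loxl1, Loxl2, Loxl3 and Loxl4) and Loxhd1 were undetected on every array. So were 20 of the 23 metalloproteinases, among them the gelatinases Mmp2 and Mmp9, the collagenases Mmp8 and Mmp13 and the stromelysins Mmp3 and Mmp10. Mmp14, Mmp19 and Mmp28 had a detected probe. Timp1, the inhibitor that rises in scarring liver, and Timp4 were undetected, as were Tgfb2 and Tgfb3 and the collagen-binding proteoglycan gene Lum. The probe for Timp1 read 1.60 to 2.11 in AAV-V, 1.504 to 1.93 in AAV-GP73 and 2.47 to 5.92 in AAV-V HFD, all without detection. Those of Lum (1.60 to 5.62 over the 9 arrays), Mmp2 (1.51 to 3.12) and both of Lox (1.29 to 2.58) stayed as dim.

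The usual readouts of scarring lay at or under the detection limit. Col1a1, the α1 chain of collagen I, had 4 probes, of which 2 are printed 10 times on each array. None was detected, and of the 10 spots of the probe A_55_P2118520 1 was well above background on the AAV-V HFD 2 array, with a processed signal of 30.9 and an outlier mark, while the average over its other spots was 3.79. The probe A_51_P450957 for Acta2, the smooth muscle actin of myofibroblasts, was detected on AAV-GP73 1 and AAV-V HFD 2, with processed signals of 3.98, 1.69 and 2.37 in AAV-V, 8.42, 9.43 and 8.01 in AAV-GP73, and 7.17, 9.84 and 7.42 in AAV-V HFD. The probe A_51_P182303 for Col1a2, the α2 chain of collagen I, was detected on 0 arrays of AAV-V, 2 of AAV-GP73 and 1 of AAV-V HFD, with signals of 1.53 to 4.16, 7.37 to 11.2 and 6.65 to 11.2. For both genes the AAV-V arrays lay below all others on this scale, on which the AAV-V arrays were also dimmer over the detected probes as a whole. The part of this brightness in the difference was not tested, and neither probe entered the test, since neither was detected on all arrays of a group.

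Several other genes were detected on a few arrays. Col3a1, the fibrillar collagen of reticulin, was detected on AAV-GP73 3, AAV-V HFD 1 and AAV-V HFD 2, with signals of 8.999, 7.06 and 8.86 there and 1.36 to 3.28 elsewhere. The inhibitors Timp2 and Timp3 were detected on 2 arrays of AAV-GP73 each and on AAV-V HFD 2. Col16a1 was detected on 1, 2 and 2 arrays of AAV-V, AAV-GP73 and AAV-V HFD, and Col6a4 on 2 arrays of AAV-V, with signals of 15.5 and 19.7 and 1.43 to 3.19 on the other 7 arrays. Tgfb1, the main fibrogenic cytokine, was detected on AAV-V 2 only, at 12.8 against 1.64 to 2.12 elsewhere. A second probe for Acta2 and the probes for Col5a3, Col6a1, Col6a3, Col8a2, Col14a1, Col15a1, Col22a1 and Mmp14 were likewise detected on 1 array each, which makes 10 probes with Tgfb1. AAV-V and AAV-GP73 each had 4 of these, and AAV-V HFD had 2, both on AAV-V HFD 2.

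**Figure D2:**
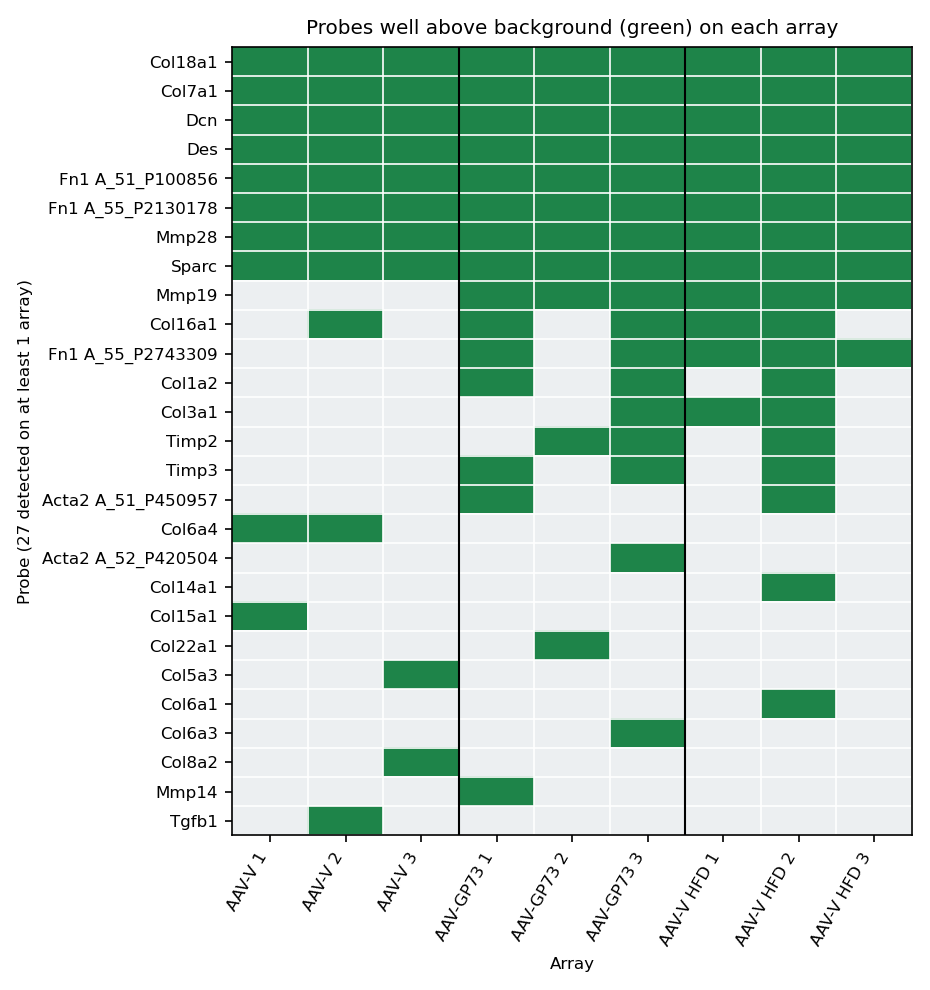
The 27 probes well above background on at least 1 array (y axis, gene name, with the probe where a gene has several) against the 9 arrays (x axis); green marks an array on which the probe was well above background. The upper 8 probes are green throughout, Mmp19 is green on the 6 AAV-GP73 and AAV-V HFD arrays only, and 10 probes are green on 1 array.

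The 10 probes detected on all arrays of at least 1 group (6.06% of 165, against 11.6% of all probes) entered limma's test over 6591 probes, with a probe called where it changed at least 2-fold at a Benjamini-Hochberg adjusted p under 0.05. Mmp19 and Fn1 A_55_P2743309 were detected on no array of AAV-V and entered the test through the other groups alone, so that no size of their change against AAV-V can be given and no count over the 10 probes is given as support for a direction of matrix genes.

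In AAV-GP73 against AAV-V, 3 of the 10 probes were called higher (Col18a1, Dcn and 1 of 3 for Fn1), where 33.9% of all probes tested were. Another 3 were called lower (Col7a1, Des and Mmp28), where 17.9% of all probes were. The median log2 fold change of the 10 was 0.35, against 0.63 over all probes tested. These shares are near those of the array as a whole, so that the counts are no result about matrix genes. The balance of calls rested on the scaling and on the filter. With arrays scaled on the 75th percentile of all probes, the calls over the whole array were 4375 higher and 418 lower in place of 2232 and 1182. Scaled on the spike-in spots they were 5116 and 93. The medians were then 1.63 and 2.31. With the scaling used here but a test of only the 2667 probes detected on all 9 arrays, the calls were 428 higher and 821 lower. Changes of the called probes with a measured size and of Sparc are therefore given also relative to the median of all probes tested, a value that a shift of whole arrays leaves unchanged.

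Col7a1, the chain of the anchoring fibrils that fasten epithelium to stroma, was called lower in both comparisons with AAV-V. Its processed signals were 23.4, 31.1 and 65.7 in AAV-V, 23.3, 10.8 and 24.8 in AAV-GP73, and 22.8, 28.1 and 20.4 in AAV-V HFD. The unscaled signals of AAV-V and AAV-GP73 overlapped, with AAV-V 3 the highest, whereas after scaling to the dimmer AAV-V arrays the groups did not. On the scaled log2 scale Col7a1 stood at 6.18 ± 0.68 (SD, n = 3) in AAV-V, 3.66 ± 0.59 in AAV-GP73, with 4.10 ± 0.31 in AAV-V HFD. It fell by 2.52 (SE 0.40, adjusted p = 0.000324) in AAV-GP73 and by 2.08 (SE 0.40, adjusted p = 0.00169) in AAV-V HFD, changes of -3.15 and -2.49 relative to the median of all probes. With spike-in scaling the log2 fold changes were -0.84 and -0.74 and neither was called.

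The Des probe moved in the same way as Col7a1. Des encodes desmin, the intermediate filament of smooth muscle and of stellate cells. Its processed signals were 31.9, 91.6 and 42.0 in AAV-V, 55.8, 30.6 and 20.4 in AAV-GP73, and 25.4, 25.1 and 32.5 in AAV-V HFD. AAV-V 2 was the highest, and the unscaled groups overlapped. The scaled log2 signal was 6.63 ± 0.87 (SD, n = 3) in AAV-V, 4.49 ± 0.90 in AAV-GP73, with 4.32 ± 0.59 in AAV-V HFD, with no overlap of either group with AAV-V. It fell by 2.14 (SE 0.52, adjusted p = 0.00406) and by 2.31 (SE 0.52, adjusted p = 0.00383), changes of -2.77 and -2.71 relative to the median of all probes, with -0.47 and -0.97 and no call under spike-in scaling. The other Des probe, on the RefSeq mRNA, read 1.54 to 2.40 on all arrays, so that the fall rests on the probe of ENSMUST00000144894.

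Mmp28, a metalloproteinase of epithelia also called epilysin, was the third to fall in AAV-GP73. Its processed signals were 10.1, 9.60 and 15.7 in AAV-V, 15.0, 9.76 and 17.8 in AAV-GP73, and 20.4, 15.5 and 14.6 in AAV-V HFD. These values overlapped between AAV-V and AAV-GP73, and the scaled ones did not. The scaled log2 signal was 4.52 ± 0.29 (SD, n = 3) in AAV-V, 3.24 ± 0.35 in AAV-GP73, with 3.60 ± 0.23 in AAV-V HFD, so that Mmp28 fell by 1.28 (SE 0.29, adjusted p = 0.00276) in AAV-GP73, -1.91 relative to the median of all probes, a direction that turned to 0.40 with spike-in scaling, and a call that was lost at -0.28 when scaled on all probes. In AAV-V HFD the log2 fold change was -0.92 (SE 0.29, adjusted p = 0.0197), short of 2-fold, and 0.03 and 0.42 when scaled on all probes or on the spike-in spots; without AAV-V 1 or without AAV-V HFD 3 it was called, at -1.01 and -1.04. A second Mmp28 probe, on another RefSeq mRNA, was detected on no array.

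**Figure D3:**
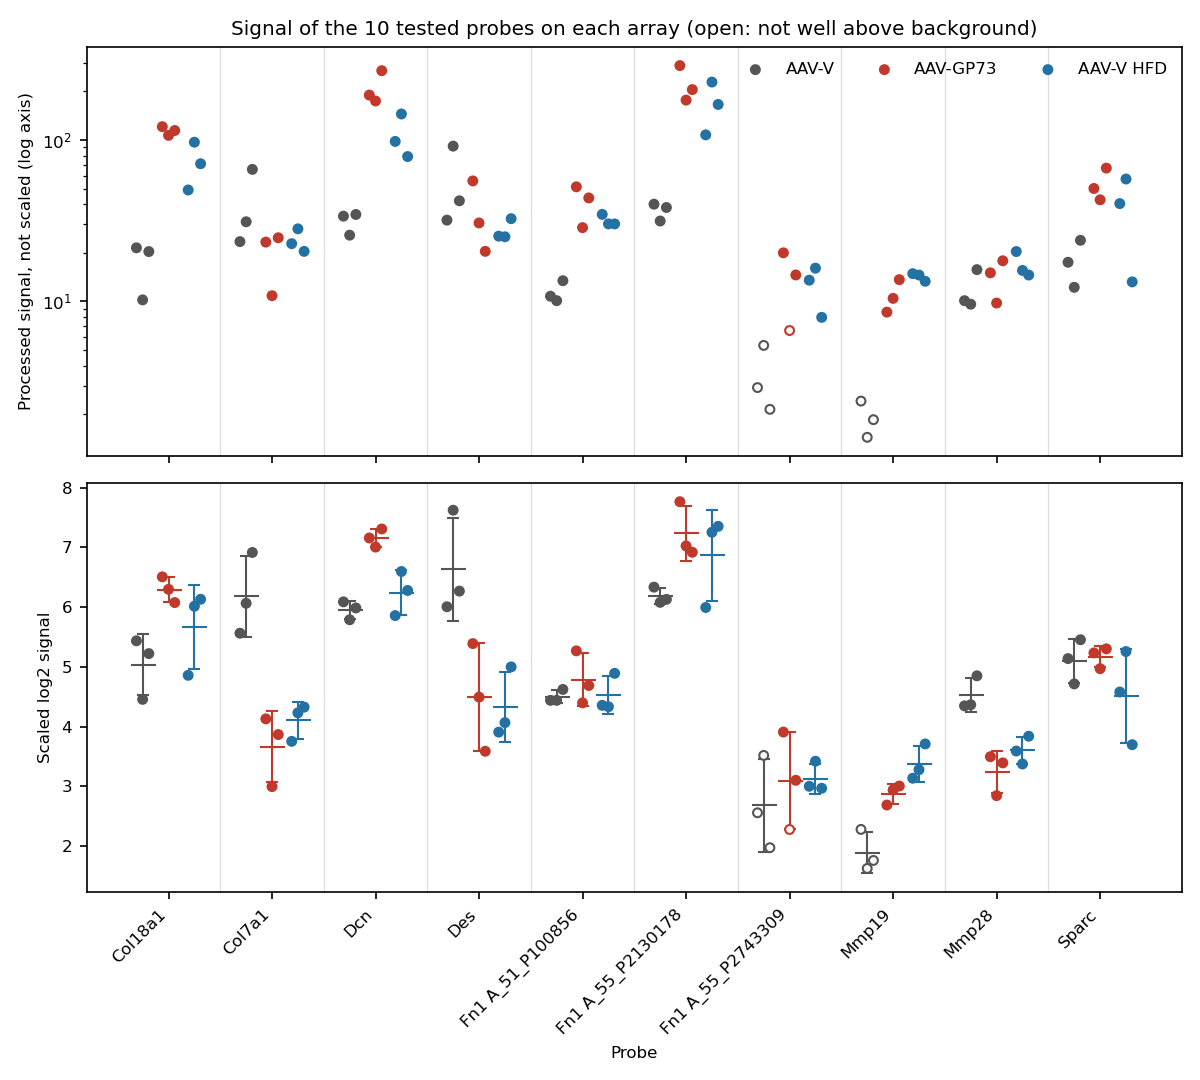
Signal of the 10 tested probes (x axis) on each array, above as processed signal without scaling between arrays (log axis) and below as scaled log2 signal with the mean and SD of each group; open circles are arrays on which the probe was not well above background. For Col7a1, Des and Mmp28 the AAV-V and AAV-GP73 points overlap above and separate below, whereas for Col18a1, Dcn and Fn1 A_55_P2130178 they are apart in both.

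Dcn, decorin, a proteoglycan that binds collagen fibrils and TGF-β and is made by stellate cells, was called higher in AAV-GP73. Its processed signals were 33.7, 25.7 and 34.5 in AAV-V, 189.8, 174 and 269 in AAV-GP73, and 97.99, 145 and 78.9 in AAV-V HFD. The AAV-GP73 arrays were above all others on the scaled log2 scale too, at 7.16 ± 0.15 (SD, n = 3) against 5.95 ± 0.15 in AAV-V and 6.24 ± 0.37 in AAV-V HFD. Dcn rose by 1.20 on the log2 scale (SE 0.27, adjusted p = 0.00286), or 2.30-fold, which is 0.57 above the median of all probes. In the log2 table of the authors the change was 0.93, with normexp background correction it was 0.49, and neither was called. In AAV-V HFD the log2 fold change was 0.29 (SE 0.27, adjusted p = 0.388), a value that turned to -0.07 in the authors' table and -0.18 with normexp.

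Col18a1, a multiplexin of basement membranes from which endostatin is cut, was called higher in AAV-GP73 as well. Its processed signals were 21.5, 10.2 and 20.4 in AAV-V, 121, 107 and 115 in AAV-GP73, and 49.0, 96.9 and 71.3 in AAV-V HFD. No AAV-GP73 array overlapped with AAV-V on either scale. The scaled log2 signal was 5.04 ± 0.52 (SD, n = 3) in AAV-V, 6.29 ± 0.22 in AAV-GP73, with 5.67 ± 0.70 in AAV-V HFD, and the rise of 1.26 (SE 0.38, adjusted p = 0.0138) lay 0.62 above the median. Without AAV-V 2, the lowest array, the change was 0.96 and the call was lost, as it was with normexp at 0.16. In AAV-V HFD the log2 fold change was 0.63 (SE 0.38, adjusted p = 0.18), which was called without AAV-V HFD 1 at 1.03 and turned to -0.23 with normexp.

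Fn1 encodes fibronectin, which hepatocytes secrete into plasma and stellate cells into the matrix, and 1 of its 3 tested probes was called. The probe nearest the 3′ end, A_55_P2130178, had processed signals of 40.0, 31.5 and 38.2 in AAV-V, 289, 177 and 205 in AAV-GP73, and 108, 229 and 166 in AAV-V HFD. Its scaled log2 signals were 6.18 ± 0.13 (SD, n = 3), 7.23 ± 0.46 and 6.86 ± 0.76 in this order. It rose by 1.05 (SE 0.38, adjusted p = 0.0313) in AAV-GP73 with no overlap of the arrays, 0.42 above the median of all probes, and in AAV-V HFD the log2 fold change was 0.68 (SE 0.38, adjusted p = 0.146). The call in AAV-GP73 was lost without AAV-V 2 (1.00), AAV-V 3 (1.03), AAV-GP73 1 (0.79) or AAV-GP73 2 (1.16). It was lost as well with the median of detected probes (0.94), with quantile normalization (0.92), with normexp (0.41) and in the authors' table (0.76), and kept in 2 of these 6 alternatives, the scalings on all probes (2.05) and on spike-in spots (2.73) that raised the median of all probes. Relative to that median the change in the authors' table was -0.03. In AAV-V HFD the probe was called without AAV-V HFD 1, at 1.12.

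The other probes for Fn1 did not pass the test, and a difference between the probes was not tested. A_51_P100856, which crosses an intron, read 10.8, 10.1 and 13.4 in AAV-V, 51.3, 28.6 and 43.8 in AAV-GP73, and 34.6, 30.2 and 30.2 in AAV-V HFD, with log2 fold changes of 0.28 (SE 0.30, adjusted p = 0.42) and 0.03 (SE 0.30, adjusted p = 0.947) after scaling. A_55_P2743309, near the 5′ end, was detected on 0, 2 and 3 arrays of AAV-V, AAV-GP73 and AAV-V HFD. Its scaled log2 signals were 2.68 ± 0.78, 3.095 ± 0.82 and 3.13 ± 0.25 (SD, n = 3), with adjusted p = 0.438 and 0.421 in limma's fit and no size against AAV-V. Both probes were called higher in AAV-GP73 when scaled on all probes or on spike-in spots. The remaining probe, on an Ensembl transcript, was detected on no array.

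Mmp19, a metalloproteinase that cleaves basement membrane proteins, was detected on all 6 arrays of AAV-GP73 and AAV-V HFD and on 0 of AAV-V. Its processed signals were 2.41, 1.44 and 1.85 in AAV-V, 8.57, 10.4 and 13.6 in AAV-GP73, and 14.8, 14.6 and 13.3 in AAV-V HFD. The scaled log2 signals were 1.89 ± 0.34 (SD, n = 3), 2.88 ± 0.17 and 3.37 ± 0.30, all under the lowest detected level of the AAV-V arrays, so that no size of change can be given. The fit called it higher in AAV-V HFD (adjusted p = 0.00173), a direction that turned with normexp, and not in AAV-GP73 (adjusted p = 0.0106), where the fitted change of 0.99 was just under 2-fold and passed it without AAV-V 1 (1.18) or without AAV-GP73 1 (1.08). In AAV-GP73 it was also called higher in 4 of the 6 alternatives of scaling, background or source of values. These were scaling on all probes, on spike-in spots, quantile normalization and the authors' table. In AAV-V HFD it was called in 5. The second Mmp19 probe, nearer to the 5′ end of the same mRNA, was detected on no array.

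Sparc, osteonectin, a collagen-binding glycoprotein of remodelling tissue, passed the test in no comparison with the scaling used here. Its processed signals were 17.5, 12.2 and 23.9 in AAV-V, 50.1, 42.6 and 67.0 in AAV-GP73, and 40.4, 57.3 and 13.2 in AAV-V HFD. After scaling the groups overlapped, at 5.10 ± 0.37 (SD, n = 3), 5.17 ± 0.18 and 4.51 ± 0.78, with log2 fold changes of 0.07 (95% interval -0.76 to 0.89, adjusted p = 0.887) in AAV-GP73, a sign that turned in 4 of the 6 other scalings and corrections, and -0.59 (-1.41 to 0.23, adjusted p = 0.202) in AAV-V HFD, a sign that turned in 2. Relative to the median of all probes tested these are -0.57 and -0.999. Over the probes detected on all 9 arrays, as Sparc was, the medians were -0.11 and -0.26. The change of Sparc in AAV-GP73 lay above the first of these. Scaled on all probes or on the spike-in spots, Sparc was called higher in AAV-GP73, at 1.06 and 1.74. The other 2 Sparc probes were detected on no array.

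In AAV-V HFD against AAV-V, 1 of the 10 probes was called higher (Mmp19), where 25.1% of all probes tested were, and 2 were called lower (Col7a1 and Des), where 16.9% were. The median log2 fold change of the 10 was 0.16, against 0.41 over all probes tested. Again the counts lie near or below the background, and the split over the whole array, 1652 higher and 1116 lower, became 3844 and 195 when scaled on all probes and 4443 and 78 on the spike-in spots. Where only probes detected on all 9 arrays were tested, the split was 318 higher and 768 lower. This comparison shares its AAV-V arrays with that of AAV-GP73, so that likeness between them is no independent observation.

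**Figure D4:**
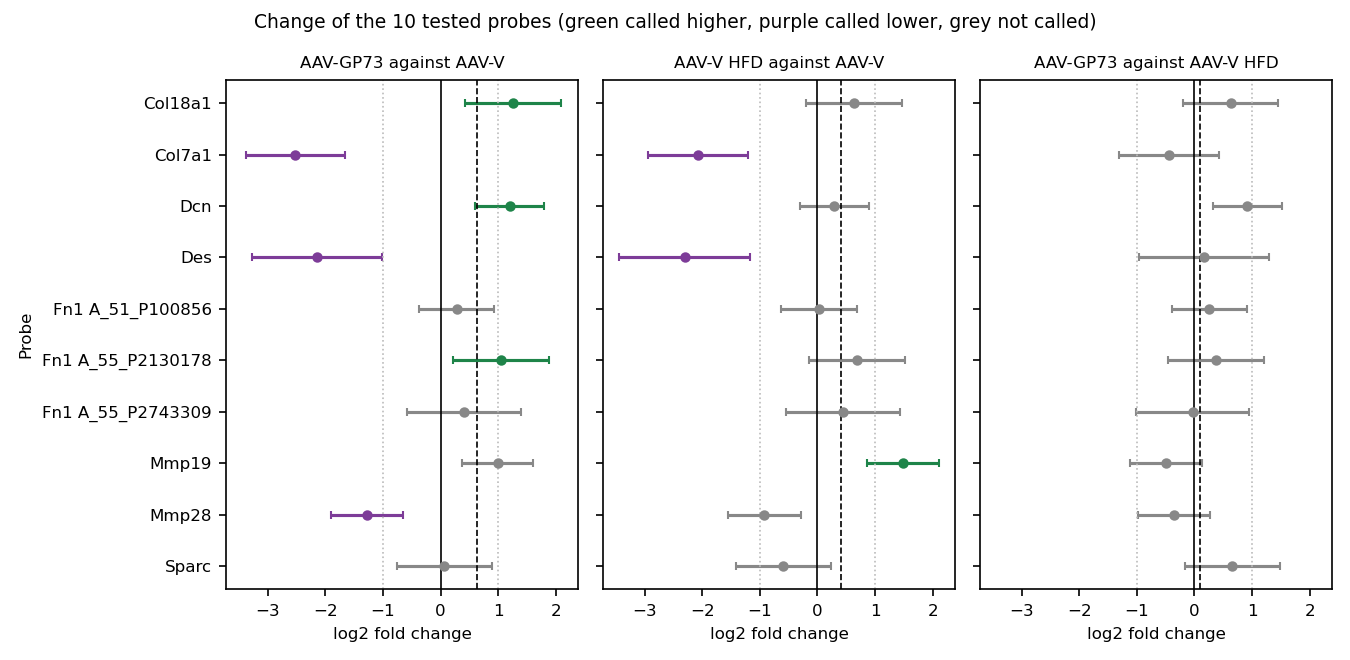
Log2 fold change of the 10 tested probes (points) with the 95% interval of limma's fit (bars) in the 3 comparisons; the solid line is at 0, the dashed line at the median of all 6591 probes and the dotted lines at 2-fold. Green probes were called higher, purple lower and grey neither; Col7a1 and Des lie far left of the dashed line in the first 2 panels, and no probe is called in the third. For Mmp19 and Fn1 A_55_P2743309, undetected in AAV-V, the points of the first 2 panels are fitted values and no measured size.

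Compared directly, AAV-GP73 and AAV-V HFD differed in 0 of the 10 probes in limma's test, higher or lower, where 2.08% of all probes tested were called higher in AAV-GP73 and 0.607% lower; at an unadjusted p under 0.05 there was 1, and the test named in the study's legend, after adjustment, called 0 as well. That probe was Dcn, at 0.91 on the log2 scale (95% interval 0.31 to 1.51, adjusted p = 0.111), with every AAV-GP73 array above every AAV-V HFD array, and it was called with spike-in scaling at 1.25. For Col7a1 the interval of the difference was -1.30 to 0.42, for Des -0.97 to 1.30 and for Mmp19 -1.12 to 0.12, so that differences of up to 2-fold or more remain possible for each. For Sparc it was -0.16 to 1.48, where AAV-V HFD 3 was the lowest array.

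The plot of fold changes by scaling, from which normexp is left out, shows how far the directions depend on the scale. The fall of Col7a1 and Des kept its sign in all 6 alternatives to the scaling, background or source of values, in both comparisons. Normexp is among these and is no check of a fall, since it lowers dim probes on the brighter arrays. Dcn, Col18a1 and Fn1 A_55_P2130178 kept a positive sign in AAV-GP73 in all 6, but the size ran from 0.49, 0.16 and 0.41 with normexp to 2.88, 2.93 and 2.73 with spike-in scaling.

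**Figure D5:**
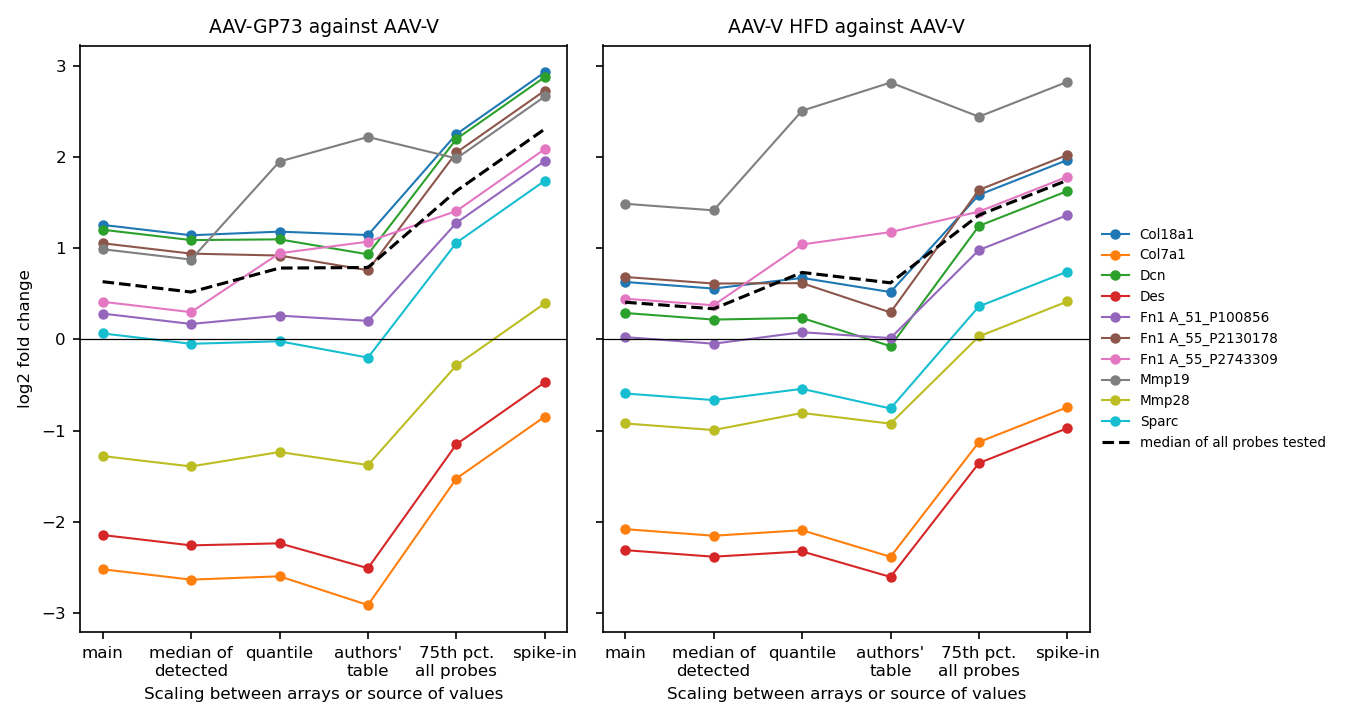
Log2 fold change of each tested probe (y axis) under 6 scalings or sources of values (x axis), for both comparisons with AAV-V; the dashed line is the median of all probes tested. All lines move up together with the dashed line at the right, where arrays were scaled on all probes or on spike-in spots, and Col7a1 and Des stay below 0 throughout. Normexp is not plotted.

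Of the genes around collagen that are not among the 86, few could be tested either. Smad4, P4hb, Colgalt1, Prelp, Plg, Adam9, Adamts1 and Itgb1 were detected on no array of AAV-V and entered the test through the other groups alone, so that the counts and medians of their lists are descriptions of the genes that passed. In a list of 29 other matrix glycoproteins and proteoglycans, 19 were undetected and 6 tested. Hspg2 (perlecan, of basement membranes), Bgn (biglycan, a relative of decorin) and Mfap4 (a microfibril protein) fell by 2.58, 2.23 and 2.04 in AAV-GP73 (adjusted p = 0.000115, 0.000285 and 0.000208), and by 1.91, 1.63 and 1.32 in AAV-V HFD (adjusted p = 0.000952, 0.00269 and 0.00367), where the sign of Mfap4 turned to 0.01 with spike-in scaling. With that scaling none was called: Hspg2, Bgn and Mfap4 stood at -0.90, -0.56 and -0.37 in AAV-GP73, and Hspg2 and Bgn at -0.57 and -0.30 in AAV-V HFD. Thus 3 of the 6 were called lower in each comparison, where 17.9% and 16.9% of all probes tested were. The other tested genes were not called. Vtn stood at 1.23 and 0.25 and Ecm1 at 0.77 and -0.04, and Prelp has no size against AAV-V. The list's median was -0.76 and -0.75, against 0.63 and 0.41 over all probes. It lies in the gap between the falling genes and the others, and describes neither. None of the 11 laminins could be tested, and 9 were detected on no array.

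Among 22 enzymes and chaperones of collagen synthesis 14 were undetected and 5 tested, with medians of -0.31 and 0.06. Bmp1, the proteinase that trims procollagen, and Pcolce, its enhancer, fell by 1.96 and 1.13 in AAV-GP73 (adjusted p = 0.000391 and 0.00277) and by 1.60 and 1.08 in AAV-V HFD (adjusted p = 0.00211 and 0.00494), with the sign of Pcolce turning to 0.54 and 0.25 under spike-in scaling. Bmp1 was under 2-fold at -0.96 and -0.65 when scaled on all probes, and at -0.29 and -0.26 with spike-in scaling. Colgalt1, which adds galactose to collagen, was called higher in AAV-GP73 (adjusted p = 0.0447) but was detected on no array of AAV-V, and its sign turned with normexp. In the list of TGF-β and CCN signalling 3 of 26 genes were tested and 17 undetected. Its medians were 0.94 and 0.53. Tgfbi, a matrix protein induced by TGF-β, was detected on 1, 3 and 3 arrays of AAV-V, AAV-GP73 and AAV-V HFD. Its fitted rise in AAV-GP73 was 1.20 (limma adjusted p = 0.0302), a sign that turned to -0.36 with normexp. The AAV-V mean of 3.53 lay under the lowest detected level of those arrays, 3.86 on average, so that the size is uncertain.

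Of 18 plasmin-system and other matrix proteases 6 were tested and 12 undetected. None was called in AAV-GP73 by limma, with 1 at an unadjusted p under 0.05. Adamts1, detected on 3 arrays of AAV-GP73 and 0 of the others, was called lower in AAV-V HFD, where both groups lay below detection and no size can be given, and its sign turned to 0.035 with spike-in scaling. In the lists of genes around collagen, cell markers aside, Adamts1 was also the 1 gene called between AAV-GP73 and AAV-V HFD (adjusted p = 0.0106). Of 11 collagen receptors 3 were tested and 6 undetected, with medians of -0.12 and -0.10. Itga10, an integrin chain that binds collagen, was detected on 3, 1 and 2 arrays of AAV-V, AAV-GP73 and AAV-V HFD and fell by 2.00 in AAV-GP73 (adjusted p = 0.00156) and by 1.10 in AAV-V HFD (adjusted p = 0.0405), where its sign turned to 0.23 with spike-in scaling; in AAV-GP73 it stood at -0.33 there, under 2-fold.

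The cells that make matrix were read by markers from fixed lists. Of 15 markers of hepatic stellate cells 6 were undetected, among them Lrat, Pdgfrb and Pdgfra, and 7 were tested. Besides Dcn and Des, Colec11 was called higher in AAV-GP73, at least 1.22-fold (adjusted p = 0.00343), with detection on 0 arrays of AAV-V and a sign that turned with normexp. Reln was called lower in AAV-V HFD (adjusted p = 0.0449), where neither it nor AAV-V had detection on any array and no size can be given, and its sign turned with quantile normalization, with spike-in scaling and in the authors' table. The summed scaled signal of the 7 genes ran from 222 to 312 in AAV-V, 271 to 318 in AAV-GP73 and 129 to 245 in AAV-V HFD. In AAV-V it came mostly from Des and Dcn, which moved in opposite directions in AAV-GP73 (log2 fold changes -2.14 and 1.20). The sum therefore shows neither change. Of 7 smooth muscle markers Tagln alone was tested, with 3 undetected, among them Myh11 and Cnn1. Tagln fell by 1.76 and by 1.28 (adjusted p = 0.000739 and 0.00659), from 59.0 to 131 in AAV-V to 27.2 to 30.5 in AAV-GP73 and 33.9 to 44.1 in AAV-V HFD, a sign that turned to 0.056 in AAV-V HFD with spike-in scaling. In AAV-GP73 the change was under 2-fold at -0.77 when scaled on all probes and -0.088 with spike-in scaling. All 8 markers of portal fibroblasts and mesothelium were undetected.

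Blood RNA differed between the groups. Of 7 erythroid markers 5 were tested and 4 were called higher in AAV-GP73 (Hba-a1, Hba-a2, Hbb-b2 and Hbb-bt), with log2 fold changes of 3.85 for Hba-a1 and 2.92 for Hbb-bt and a sign of Hbb-b2 that turned with normexp, and 0 in AAV-V HFD by limma, where 0 had an unadjusted p under 0.05. Against AAV-V HFD, Hba-a1 and Hba-a2 were called higher in AAV-GP73 as well, by 3.18 and 3.17 (limma adjusted p = 0.0119 and 0.0108). The summed scaled signal of the 5 tested markers was 394 to 974 in AAV-V, 3420 to 17400 in AAV-GP73 and 654 to 1140 in AAV-V HFD. This moved with the comparison in which Dcn, Col18a1 and Fn1 were called higher, and its part in those results was not tested.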

How the data were processed

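Liver RNA of 9 samples carried a single dye, Cy3. The deposited intensity values are processed signals of Agilent Feature Extraction 12.0.3.1, per the file headers, background-subtracted and detrended within each array. The authors also deposited their own log2 values, whose normalization is not given in the sources used here (column medians 0.799 to 0.801, maximum 16.64 in all 9).

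Spots of a probe were averaged without outlier marks. Log2 signals were scaled as described, and 6591 probes were fitted over the 3 groups with lmFit and eBayes (limma 3.58.1, R 4.3.3 and version 1.17.8 of data.table); adjusted p values are Benjamini-Hochberg over these. A gene of a list was represented by its brightest tested probe. "At least" folds set undetected arrays to their lowest detected signal. Genes named were every tested gene, the common readouts of fibrosis, and the called genes of each list with the largest changes. Adamts1, Mfap4, Vtn, Ecm1 and the markers were added after their values were seen. The genes, lists and tests were chosen with earlier results of these data known. All steps were first tested on simulated data. With 3 arrays a group the smallest two-sided exact permutation p is 0.1, and this number sets the precision.

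The alternatives were scaling on the 75th percentile of all probes, the median of detected probes, quantile normalization or spike-in spots, normexp (offset 50), the authors' own log2 values, no filter, detection on all 9 arrays, brightest probes, the t-test of the legend with and without adjustment, trend and robust eBayes, only the 2 groups compared, the replicate number as a block, leaving out each array, and other detection rules.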

Additional observations from a re-analysis of the deposited data

How the results depend on the processing

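The counts of called probes depended most on scaling and filter, and where no cause is named the cause was not tested. In AAV-GP73 against AAV-V the 3 probes called higher became 7 when scaled on the 75th percentile of all probes or on spike-in spots and 0 with normexp, and 1 to 4 when 1 array was left out (1, Dcn, without AAV-V replicate 2). The 3 called lower became 0 with spike-in scaling and 142 with no filter. In AAV-V HFD against AAV-V the 1 called higher became 5 when scaled on all probes, 6 with spike-in scaling, 0 with normexp, 0 where only probes detected on all 9 arrays were tested, which leaves out Mmp19, and 1 to 3 with 1 array left out (3 without AAV-V HFD replicate 1). The 2 called lower became 0 with spike-in scaling, 136 with no filter and 1 with the adjusted t-test. With no filter 44725 of all 56605 probes were called lower in AAV-GP73, because probes without signal read about the same on every array and the scaling lowers the brighter arrays. In AAV-GP73 against AAV-V HFD 0 called higher became 1 with spike-in scaling. Probes well above background on all arrays of AAV-V, AAV-GP73 and AAV-V HFD numbered 15, 29 and 23 with the weaker flag of a significant positive signal in place of 8, 9 and 10, and 14, 20 and 18 when 1 array of the group sufficed.

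List genes are counted in this section without the cell markers. The 8 list genes called in AAV-GP73 became 19 when scaled on all probes, 17 with spike-in scaling, 4 with normexp, 4 with detection on all 9 arrays and 5 with the adjusted t-test. The 7 called in AAV-V HFD became 15 with spike-in scaling and 4 with detection on all 9 arrays. The 1 called between AAV-GP73 and AAV-V HFD became 0 with quantile normalization, normexp, the authors' table, detection on all 9 arrays or the adjusted t-test, 2 with the unadjusted t-test, and 0 to 1 with 1 array left out (0 without AAV-GP73 replicate 2 or 3).

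Log2 fold changes that turned sign in AAV-GP73 against AAV-V were those of Sparc (-0.047 with the median of detected probes, -0.019 quantile, -0.48 normexp, -0.20 authors' table), Mmp28 (0.40 spike-in), Fn1 A_51_P100856 (-0.55), Fn1 A_55_P2743309 (-0.69) and Mmp19 (-0.70), the last 3 with normexp. In AAV-V HFD against AAV-V they were Mmp28 (0.034 scaled on all probes, 0.42 spike-in), Sparc (0.36 and 0.74 likewise), Fn1 A_51_P100856 (-0.046 median of detected probes, -0.68 normexp), Dcn (-0.18 normexp, -0.073 authors' table), and with normexp Col18a1 (-0.23), Fn1 A_55_P2743309 (-0.83) and Mmp19 (-0.75). In AAV-GP73 against AAV-V HFD they were Fn1 A_55_P2743309 (0.0062 scaled on all probes, 0.30 spike-in, 0.14 normexp) and, with normexp, Col7a1 (0.0079), Mmp19 (0.057) and Mmp28 (0.044). None of these turned values was called. With the scaling used here, Mmp28 was called lower in AAV-GP73 and Mmp19 higher in AAV-V HFD, and the other changes named were not called.
With 1 array left out, signs turned for Sparc in AAV-GP73 against AAV-V (-0.13 without AAV-V replicate 2, up to 0.24), for Fn1 A_51_P100856 in AAV-V HFD against AAV-V (-0.16 without AAV-V HFD replicate 3, up to 0.12), and in AAV-GP73 against AAV-V HFD for Des (-0.28 without AAV-GP73 replicate 1, up to 0.62), Fn1 A_55_P2130178 (-0.067 without AAV-V HFD replicate 1, up to 0.61) and Fn1 A_55_P2743309 (-0.44 to 0.37), none of them called.

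Equal replicate numbers of different groups did not deviate together (correlations -0.105 to 0.167 over 9 pairs, 2 above 0.1), and the numbers were taken as names only. With the replicate number as a block the calls were 3 higher and 3 lower in AAV-GP73 against AAV-V, 1 and 2 in AAV-V HFD against AAV-V and 0 and 0 between AAV-GP73 and AAV-V HFD, as without it, and the list genes called were 8, 7 and 1. Normexp adds an offset of 50, above the processed signal of most probes described here. Dim probes then read nearly alike on every array, and the scaling lowers them on the brighter arrays. The medians over all probes tested with normexp were -0.58 in AAV-GP73 against AAV-V and -0.74 in AAV-V HFD against AAV-V. For dim probes a sign that turned with normexp is therefore an outcome of the method and no check of direction. A fall that was kept with normexp, such as that of Col7a1 or Des, is no check of direction either. The dim arrays of AAV-V limit detection there, and 3 arrays a group limit the precision.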

Other observations

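Markers of other liver cells were read in the same fit. All 12 hepatocyte markers were tested, with 4 called higher in AAV-GP73 (Cyp2e1, Tat, Hnf4a and Asgr1) and 1 lower (Cps1, a sign that turned to 0.084 with spike-in scaling), where 33.9% and 17.9% of all probes were. Their summed scaled signal was 18200 to 27200 in AAV-V, 18700 to 24900 in AAV-GP73 and 11700 to 18400 in AAV-V HFD. In AAV-V HFD 2 were called higher (Cyp2e1 and Hnf4a) and 1 lower (Cps1), where 25.1% and 16.9% of all probes were.

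Of 11 markers of Kupffer cells and macrophages 6 were tested and 1 was called in AAV-GP73, Clec4f, at least 1.01-fold higher (adjusted p = 0.021), with 0 in AAV-V HFD by limma (3 at an unadjusted p under 0.05). The summed signal of the 6 was 512 to 573 in AAV-V, 464 to 564 in AAV-GP73 and 403 to 517 in AAV-V HFD, and is mostly that of Itgam, which was not called. Of 12 endothelial markers only Clec4g, a lectin of sinusoidal endothelium, was tested, and it was called higher in AAV-GP73, at least 1.5-fold (adjusted p = 0.00171); it was detected on 0, 3 and 1 arrays of AAV-V, AAV-GP73 and AAV-V HFD. The signs of Clec4f and Clec4g turned with normexp, to -0.56 and -0.39.

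Of 12 markers of lymphocytes and neutrophils 4 were tested, and Cd4 was called lower in AAV-GP73 (-2.38, adjusted p = 0.000404) and in AAV-V HFD (-1.34, adjusted p = 0.0138). With spike-in scaling it stood at -0.71 and -0.0061, and at -0.39 in AAV-V HFD when scaled on all probes, all under 2-fold. The other 3 were not called, and the summed signal of the 4 (1880 to 3520 in AAV-V, 415 to 936 in AAV-GP73, with 867 to 1500 in AAV-V HFD) is mostly that of the Cd4 probe. None of the 7 cholangiocyte markers was tested, and 4 of them were detected on no array.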
